A study of Homo sapiens with 6 samples.

Results

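Initiator and executioner caspases and the proteins that switch them on were followed as messenger RNA in cells labelled HCC1937, an established human breast cancer line of the triple-negative class. The genes are CASP2, CASP6, CASP8, CASP9, CASP10, APAF1, CFLAR and FADD, taken by name as the caspases and adaptors of the 2 main apoptotic routes. They are 8 of the 78932 gene rows in the count table, and each passed the filter on low counts. Control cells were set against cells exposed to 8 nM docetaxel for 24 h, with 3 libraries in each group. Docetaxel is a taxane that stabilises microtubules and holds dividing cells in mitosis. The labels give no vehicle for the controls and no genetic change in either group, and all 6 libraries come from the same line. Poly(A)-enriched RNA was sequenced in bulk, so fewer cells of a type and less RNA per cell cannot be told apart. The title of the series concerns estrogen receptor expression after docetaxel, and no aim for the caspase genes is stated.

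Library totals ran from 38622062 to 41675186 counts, and 3 counts corresponded to 0.0720 to 0.0777 CPM, the counts scaled to library size. The 11 listed epithelial markers were read beside the label of the cells. They were mixed, some abundant and others near absent, so they do not by themselves bear out the label. The identity of the line was not tested. The keratin genes KRT8, KRT18 and KRT7 averaged 1969, 667 and 477 CPM, ELF3 45.9 CPM, KRT17 6.02 CPM and CLDN4 2.96 CPM. CDH1 averaged 0.692 CPM. EPCAM averaged 0.0666 CPM, KRT5 0.0386 CPM, KRT14 0.127 CPM and KRT19 0.105 CPM, at or near the counting floor. Of the 5 fibroblast markers COL1A1 averaged 140.0 CPM and PDGFRB 4.57 CPM, while COL3A1, DCN and THY1 were between 0.123 and 0.244 CPM. Of the 5 leukocyte markers CD14 averaged 2.00 CPM and the other 4 were at or below 0.184 CPM, PTPRC and CD3E with 1 and 2 reads over the 6 libraries. Of the 4 endothelial markers PECAM1 averaged 1.99 CPM, CDH5 0.485 CPM and VWF 0.412 CPM, and KDR had 1 read.

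Caspases are cysteine proteases that cells make as inactive precursors. Initiator caspases are switched on when adaptor proteins bring their precursors together, and they then cut the executioner caspases, which dismantle the cell. In the extrinsic route, ligand-bound death receptors recruit FADD, which gathers caspase 8 and caspase 10, while FLIP, the product of CFLAR, competes for the same platform. In the intrinsic route, cytochrome c leaving the mitochondria drives APAF1 into the apoptosome, which activates caspase 9. Caspase 2 has a platform of its own, the PIDDosome, which is known to respond to surplus centrosomes after failed division. Caspase 6 acts downstream and is known for cutting lamin A. All of these steps take place on protein, which the counts do not measure.

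After docetaxel, FADD messenger RNA was 1.31-fold higher in the main fit, and none of the other 7 genes passed the test in either direction. The test was edgeR's quasi-likelihood test with Benjamini-Hochberg adjustment over 18040 genes, with an adjusted p under 0.05 as the threshold. The FADD call depended on the fit. FADD passed in 7 of 14 alternative fits without offsets for GC content and length and in 0 of 8 with them. The 1 call among 8 genes stands beside 17.0 percent of all tested genes called in either direction, 9.14 percent called higher and 7.82 percent called lower. The median log2 fold change of the 8 genes was -0.01, and that of all tested genes was 0.01. At an unadjusted p under 0.05 the count was again 1 of 8, against 28.5 percent of all tested genes. Libraries of the 2 groups did not overlap for 1 of the 8 genes, against 32.0 percent of all tested genes, 17.0 percent higher and 15.0 percent lower. Each of these shares of the background is above or close to the share of the 8 genes.

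**Figure D1:**
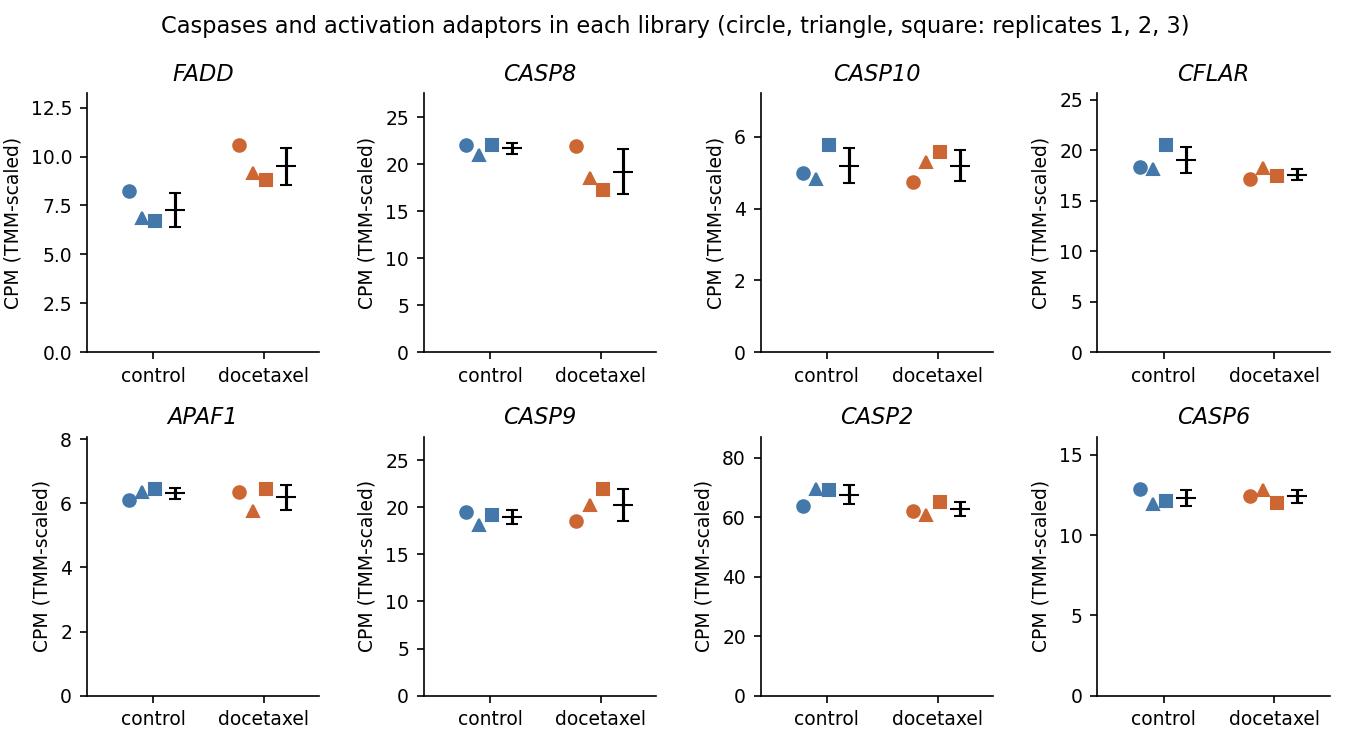
Each panel plots TMM-scaled CPM of 1 gene in the 3 control and 3 docetaxel libraries, with marker shape giving the replicate number and the bar the mean ± SD (n = 3). The docetaxel libraries lie above all control libraries for FADD, and the groups overlap in the other 7 panels.

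FADD, the adaptor that links death receptors to caspase 8, lies at chr11:70203163-70207390 on the plus strand (ENSG00000168040, GRCh38). CASP8, the initiator it recruits, lies at chr2:201233443-201287711 on the plus strand (ENSG00000064012). The reference bases just upstream of their annotated starts are shown because these 2 genes had the highest and the lowest estimated change among the 8 and differ in base composition. Both are from RefSeq on GRCh38.p14, plus strand, with each CpG dinucleotide in capitals. The FADD stretch covers chr11:70203046-70203162 and the CASP8 stretch chr2:201233213-201233442.
FADD: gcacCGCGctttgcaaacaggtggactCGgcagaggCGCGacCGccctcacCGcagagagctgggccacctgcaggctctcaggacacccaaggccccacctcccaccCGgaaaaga
CASP8: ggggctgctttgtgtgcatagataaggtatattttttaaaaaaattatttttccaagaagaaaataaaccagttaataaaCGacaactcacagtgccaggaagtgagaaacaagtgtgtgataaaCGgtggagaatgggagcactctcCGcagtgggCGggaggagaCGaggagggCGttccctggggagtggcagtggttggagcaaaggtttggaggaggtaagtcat
The FADD stretch holds 8 CpG in 117 bases at 67.5 percent GC. The CASP8 stretch holds 6 CpG in 230 bases at 46.1 percent GC. Of the 8 genes, 7 had an entry among the RefSeq promoter windows, which run from 250 bases before to 50 bases after a start, with 14 windows in all, and CASP10 was the other gene.

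The full windows of 300 bases placed FADD and CASP8 on opposite sides of the median window. The FADD window had 66.67 percent GC and 36 CpG, and the first CASP8 window had 46.33 percent GC and 6 CpG, against medians of 58.7 percent and 14 CpG over 35116 windows. GGGCGG, searched on both strands, occurred 2 times in the FADD window and 1 time in the first CASP8 window, and 45 percent of all windows hold it at least once. TCTCGCG occurred 1 time in the FADD window against 3.49 percent of all windows, and TGANTCA 1 time against 7.71 percent. Neither was particular to FADD, as TCTCGCG also occurred in a CFLAR window, and TGANTCA in the later CASP8 windows and a CFLAR window. CCAAT was not found in the FADD window, and 34.6 percent of windows hold it. APAF1 had 42 CpG in its window at 71.33 percent GC, the most CpG of the 14 windows. A match describes the letters only, and binding was not measured.

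FADD was higher in all 3 docetaxel libraries. Control libraries gave 8.25, 6.84 and 6.72 CPM for replicates 1 to 3, from 325, 291 and 277 reads. Docetaxel libraries gave 10.58, 9.16 and 8.78 CPM, from 407, 349 and 339 reads. The 2 groups did not overlap, but the lowest docetaxel library and the highest control library were close. Control averaged 7.27 ± 0.851 CPM and docetaxel 9.51 ± 0.948 CPM, as mean and SD of n = 3. The log2 fold change was 0.39 with an SE of 0.13 and a 95 percent interval of 0.12 to 0.65 (adjusted p = 0.0346, edgeR), which as a fold is 1.31 with an interval of 1.09 to 1.57.

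The FADD call was close to the threshold. It was lost without control replicate 2 (log2 fold change 0.35, edgeR adjusted p = 0.141), control replicate 3 (0.34, adjusted p = 0.138), docetaxel replicate 1 (0.28, adjusted p = 0.192), docetaxel replicate 2 (0.41, adjusted p = 0.069) or docetaxel replicate 3 (0.44, adjusted p = 0.0543). With scaling by library size alone the adjusted p was 0.065, and with DESeq2 it was 0.0619. The direction stayed upward in each of these fits. An unstranded count could mix FADD with AP000879.1, an antisense gene that overlaps it over 1100 bases and was itself assigned 97 reads in the 6 libraries.

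CASP8 is the initiator protease of the death receptor complex and did not pass the test. Control libraries gave 22.02, 21.02 and 22.01 CPM, from 868, 895 and 908 reads. Docetaxel libraries gave 21.89, 18.55 and 17.23 CPM, from 842, 707 and 665 reads. Replicate 1 of the docetaxel group lay within the control range, and the other 2 docetaxel libraries lay below it. Control averaged 21.7 ± 0.574 CPM and docetaxel 19.2 ± 2.40 CPM, as mean and SD of n = 3. The fold was 0.886 with a 95 percent interval of 0.780 to 1.01 (log2 fold change -0.17 with SE 0.09, adjusted p = 0.207 by edgeR). Leaving out docetaxel replicate 1 gave a log2 fold change of -0.30 and an edgeR adjusted p of 0.0237, and this was the 1 setting of those tried in which CASP8 was called.

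CASP10, the closest paralogue of CASP8 and its partner at the same receptors, is next to it on the long arm of chromosome 2 (ENSG00000003400, chr2:201182881-201229406, plus strand). Its control libraries gave 4.998, 4.84 and 5.77 CPM and its docetaxel libraries 4.73, 5.30 and 5.57 CPM, from 182 to 238 reads per library. The means with their SD were 5.20 ± 0.498 in control and 5.20 ± 0.428 CPM after docetaxel (n = 3), so the groups lay on top of each other. The 95 percent interval of the log2 fold change ran from -0.32 to 0.32 (edgeR adjusted p = 0.999). At this depth a change of CASP10 inside that interval is not excluded.

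CFLAR encodes FLIP, a relative of caspase 8 without a working protease site, and completes the same gene cluster (ENSG00000003402, chr2:201116104-201176687, plus strand). Control libraries gave 18.37, 18.16 and 20.51 CPM and docetaxel libraries 17.16, 18.21 and 17.43 CPM, from 660 to 846 reads per library. Control replicate 3 was the highest library, and docetaxel replicate 2 lay inside the control range. Control averaged 19.0 ± 1.30 CPM and docetaxel 17.6 ± 0.545 CPM, as mean and SD of n = 3. The log2 fold change was -0.11 with an SE of 0.09 and a 95 percent interval of -0.29 to 0.07 (adjusted p = 0.465, edgeR). CFLAR-AS1, an antisense gene that overlaps CFLAR over 17546 bases, was assigned 14 reads in the 6 libraries.

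On the intrinsic side, APAF1 is the scaffold of the apoptosome (ENSG00000120868, chr12:98645141-98735433, plus strand). Its control libraries gave 6.11, 6.34 and 6.45 CPM and its docetaxel libraries 6.34, 5.75 and 6.45 CPM, from 219 to 270 reads per library. The highest library of each group had the same value to 3 digits, and docetaxel replicate 2 was the lowest of the 6. Means with their SD were 6.30 ± 0.171 in control and 6.18 ± 0.380 CPM after docetaxel (n = 3). The log2 fold change was -0.03 with an SE of 0.14 and a 95 percent interval of -0.31 to 0.26 (adjusted p = 0.931, edgeR). An unstranded count could mix APAF1 with ANKS1B, a gene on the other strand that overlaps it over 8977 bases. ANKS1B was itself assigned 111 reads in the 6 libraries.

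CASP9, the initiator activated on that scaffold, lies at chr1:15490832-15526534 on the minus strand (ENSG00000132906). Its control libraries gave 19.51, 18.09 and 19.20 CPM and its docetaxel libraries 18.51, 20.25 and 21.97 CPM, from 712 to 848 reads per library. The 2 highest libraries were docetaxel replicates 3 and 2, but docetaxel replicate 1 fell inside the control range. Means with their SD were 18.9 ± 0.749 in control and 20.2 ± 1.73 CPM after docetaxel (n = 3). The log2 fold change of 0.10 (SE 0.09, interval -0.08 to 0.28) had an edgeR adjusted p of 0.536.

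CASP2, the initiator of the PIDDosome, had the highest CPM of the 8 (ENSG00000106144, chr7:143288215-143307696, plus strand). Control libraries gave 63.83, 69.53 and 69.12 CPM and docetaxel libraries 61.94, 60.68 and 65.20 CPM, from 2313 to 2960 reads per library. Docetaxel replicate 3 exceeded control replicate 1, so the groups overlapped by these 2 libraries. Control averaged 67.5 ± 3.18 CPM and docetaxel 62.6 ± 2.33 CPM, as mean and SD of n = 3. The log2 fold change was -0.11 with an SE of 0.06 and a 95 percent interval of -0.22 to 0.00 (adjusted p = 0.197, edgeR), the narrowest interval among the 8 genes.

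CASP6, the executioner known for cutting lamin A, lies at chr4:109688622-109703583 on the minus strand (ENSG00000138794). Control libraries gave 12.89, 11.93 and 12.10 CPM and docetaxel libraries 12.43, 12.80 and 12.02 CPM, from 464 to 508 reads per library. All 3 docetaxel libraries lay inside the control range. Means with their SD were 12.3 ± 0.511 in control and 12.4 ± 0.392 CPM after docetaxel (n = 3), with a log2 fold change of 0.01 with an SE of 0.10 and a 95 percent interval of -0.20 to 0.22 (adjusted p = 0.958, edgeR). MCUB, which overlaps CASP6 by 105 bases on the other strand, was assigned 6138 reads in the 6 libraries, and how reads in that overlap were divided is not given in the sources used here.

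**Figure D2:**
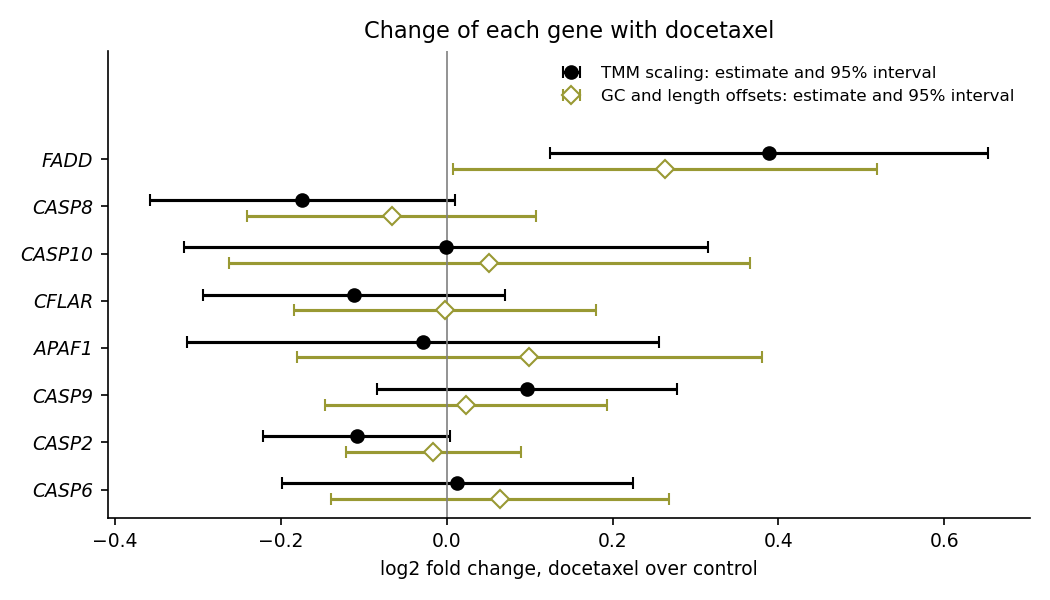
The log2 fold change of docetaxel over control is plotted for the 8 genes as points with 95 percent intervals, from TMM-scaled counts (filled) and with GC and length offsets (open). Only FADD has intervals that lie above 0 in both, and its estimate is 0.39 without and 0.26 with offsets.

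Over all tested genes, GC-rich transcripts had higher fold changes than GC-poor ones, and the 8 genes differ in GC content. Genes with a GC value were divided into 5 equal bins, whose median log2 fold changes were -0.19, -0.08, 0.01, 0.10 and 0.18 from the lowest to the highest GC. FADD, with 58.61 percent GC, is in bin 5, where 1038 of 3284 genes were called higher and 4 lower without offsets. CASP9, with 52.83 percent, is in bin 4, where 446 of 3284 were called higher and 19 lower. The other 6 genes have between 41.7 and 46.09 percent GC and fall in bin 2, where 25 of 3284 were called higher and 332 lower. The GC pattern over all genes is read here from the difference between the 2 groups, not library by library. Its source was not tested.

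Offsets for GC content and length, fitted within each library, changed the calls. With them 4.20 percent of 16421 genes were called in either direction, 2.31 percent higher and 1.88 percent lower, and none of the 8 genes was. FADD was then at 0.26 on the log2 scale with an SE of 0.13 and an interval of 0.01 to 0.52 (edgeR unadjusted p = 0.0436, adjusted p = 0.272), and it was the 1 gene of 8 with an unadjusted p under 0.05, against 17.1 percent of all genes. The estimate for CASP8 moved to -0.07 (edgeR adjusted p = 0.786) and that for CASP2 to -0.02 (adjusted p = 0.929). CFLAR moved to 0.00 (adjusted p = 0.996), APAF1 to 0.10 (adjusted p = 0.804), CASP10 to 0.05 (adjusted p = 0.921), CASP9 to 0.02 (adjusted p = 0.936) and CASP6 to 0.06 (adjusted p = 0.832). The median over the 8 genes with offsets was 0.04.

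**Figure D3:**
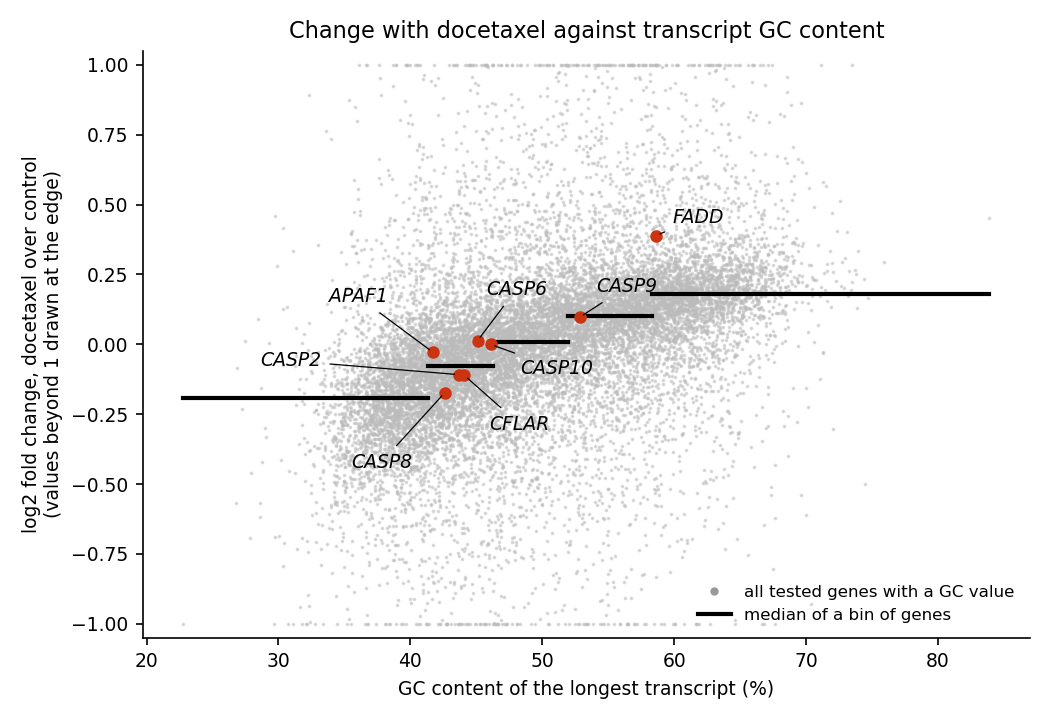
Each grey point is a tested gene, with transcript GC content in percent on the x axis and the log2 fold change of docetaxel over control on the y axis, values beyond 1 drawn at the edge. Black lines are the medians of the 5 bins of genes by GC content, rising from -0.19 to 0.18, and the 8 labelled genes include FADD above the line of bin 5.

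Per kilobase of the deposited gene length, the 8 genes spread over a wide range of levels. Over the 6 libraries CASP2 averaged 8.11 CPM per kb (range 7.57 to 8.67) and CASP6 6.36 (6.14 to 6.63). FADD averaged 4.91 CPM per kb (3.93 to 6.19), CASP9 3.72 (3.43 to 4.17) and CASP8 2.83 (2.38 to 3.04). At the low end CFLAR averaged 0.814 CPM per kb (0.763 to 0.913), APAF1 0.790 (0.727 to 0.817) and CASP10 0.583 (0.530 to 0.647). The order of the means was the same in control and docetaxel libraries. Within each library the higher gene of each neighbouring pair was higher in 6 of 6 libraries, except for CFLAR and APAF1, where it was so in 4 of 6. The ranges of CFLAR and APAF1 overlapped in both groups, so these neighbours are not separated. Those of CASP6 and FADD met in the docetaxel group alone, where the lowest CASP6 library had 6.186 and the highest FADD library 6.194 CPM per kb. The deposited length of CFLAR, 22478 bases, joins the exons of many transcripts and lowers its value on this scale, whereas FADD has 1708 bases.

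The balance of partners within a library was measured as the log2 ratio of read counts, a quantity that does not depend on scaling between libraries. The ratio of CFLAR to CASP8, inhibitor to initiator, was -0.26, -0.21 and -0.10 in control and -0.35, -0.03 and 0.02 with docetaxel. Its means were -0.19 ± 0.08 and -0.12 ± 0.20 (SD, n = 3 each), a difference of 0.07 (exact two-sided permutation test, p = 0.7, adjusted over 3 ratios 0.7). Docetaxel replicate 1 was the lowest of the 6 libraries and replicate 3 the highest, so the docetaxel group enclosed the controls.

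The ratio of CASP10 to CASP8, the paralogous initiators, was -2.14, -2.12 and -1.93 in control and -2.21, -1.81 and -1.63 with docetaxel. Its means were -2.06 ± 0.11 and -1.88 ± 0.30, a difference of 0.18 (exact permutation test, p = 0.4, adjusted 0.6, n = 3 each). As for the first ratio, docetaxel replicate 1 was the lowest library and the other 2 docetaxel libraries were the highest. The ratio of APAF1 to CASP9, scaffold to initiator, was -1.67, -1.51 and -1.57 in control and -1.54, -1.82 and -1.77 with docetaxel. Its means were -1.59 ± 0.08 and -1.71 ± 0.15, a difference of -0.12 (exact permutation test, p = 0.3, adjusted 0.6, n = 3 each). In that ratio docetaxel replicate 1 was inside the control range and the other 2 docetaxel libraries were below it. With 3 libraries against 3 the smallest p this test can give is 0.1, so it could not pass 0.05.

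**Figure D4:**
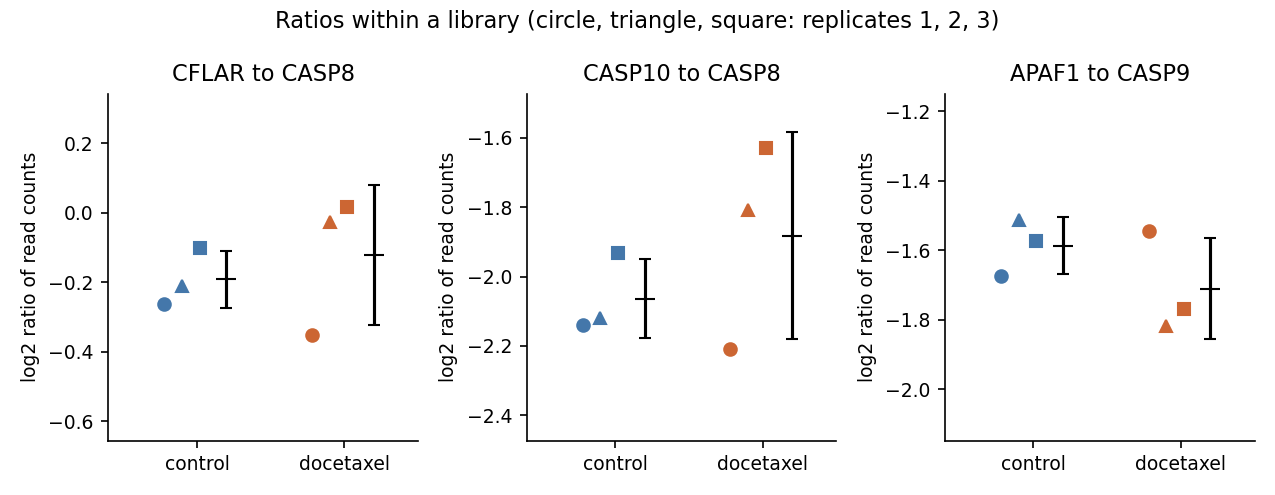
Log2 ratios of read counts within a library are plotted for CFLAR to CASP8, CASP10 to CASP8 and APAF1 to CASP9, by group, with marker shape giving the replicate and bars the mean ± SD (n = 3). The groups overlap in each panel, and docetaxel replicate 1 stands away from the other 2 docetaxel libraries.

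The genes whose log2 CPM most resembled that of FADD over the 6 libraries were MPG (Pearson r 0.994), which encodes a DNA glycosylase, SGSM2 (0.989), which encodes a regulator of RAB GTPases, and CABLES1 (0.988), which encodes a partner of cyclin-dependent kinases. They were picked from 10272 genes of at least 5 CPM, of which 315 had r above 0.9. The 6 points share their libraries and the 2 groups, so this describes likeness and is given without a test. The log2 fold changes of the 3 genes were 0.17, 0.17 and 0.23, each below the 0.39 of FADD.

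The wider pathway was read from 7 lists of receptors, adaptors, inhibitors, substrates and other caspases, which together hold 81 genes. Of these 68 were tested, 16 were higher, 9 were lower and 43 did not pass, with a median log2 fold change of 0.07, beside 9.14 percent of all tested genes higher, 7.82 percent lower and a median of 0.01. The offsets left 3 higher and 3 lower, at a median of 0.03, beside 2.31 percent of all genes higher and 1.88 percent lower. These percentages are also the background for the counts of each list below. Leaving out docetaxel replicate 3 without offsets reduced the counts to 10 higher and 5 lower. The lists were chosen with earlier results of these data known, so their counts are descriptive and are no test of the lists.

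Among the other caspases, the inflammatory CASP1 and CASP4 did not pass, with log2 fold changes of -0.68 (edgeR adjusted p = 0.451) and 0.11 (adjusted p = 0.64). CASP1 had only 12 to 28 reads per library, and other tested genes of this list are not reported here. CASP5 and CASP14 had 0 reads and CASP12 had 4 reads in the 6 libraries.

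Of 14 listed death receptors and ligands, 9 were tested, 1 was higher and 0 were lower, with a median of 0.03. The list was not limited to receptors that bind FADD. The gene that rose was TNFRSF12A, the receptor of the TWEAK ligand, which went 1.18-fold from 126.9 to 149.8 CPM (edgeR adjusted p = 0.00095, 0.705 with offsets). FAS, whose receptor binds FADD directly, went from 13.1 ± 0.783 to 11.5 ± 0.665 CPM and did not pass (log2 fold change -0.19, adjusted p = 0.249). TNFRSF25, another receptor with a death domain, had a log2 fold change of 0.27 and did not pass either (adjusted p = 0.169). FASLG and TNF, ligands made mainly by immune cells, had 5 and 1 reads in the 6 libraries.

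Of the adaptors beside FADD and the necroptosis kinases, 13 of 14 were tested, 4 were higher and 0 were lower. Their median was 0.14. Of all tested genes 9.14 percent were higher and 7.82 percent lower. The 4 higher genes have 61.31 to 66.86 percent GC, within bin 5, where 1038 of 3284 genes were called higher. TRADD, which links TNF receptors to FADD, rose 1.28-fold, with 20.9 ± 2.61 CPM in control and 26.8 ± 2.78 CPM after docetaxel (mean ± SD of 3 libraries, adjusted p = 0.00594 by edgeR), a change close in size to that of FADD. TRADD lost the call without control replicate 2 (adjusted p = 0.0765) or docetaxel replicate 3 (0.0959). TRAF2, which docks on TRADD, rose 1.17-fold (adjusted p = 0.000898). RBCK1 and SHARPIN, subunits of the linear ubiquitin ligase, rose 1.18-fold (adjusted p = 0.00087) and 1.13-fold (0.014). SHARPIN was not called without control replicate 1 (adjusted p = 0.0555), control replicate 2 (0.0597) or docetaxel replicate 3 (0.157), nor with scaling by library size alone (0.0595). With offsets none of these 4 passed, with adjusted p of 0.371 for TRADD, 0.571 for TRAF2, 0.416 for RBCK1 and 0.584 for SHARPIN, whose estimate became -0.06. The list then had 1 gene higher and 0 lower, with a median of 0.07.

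The partners of CASP2 were in the list of PIDDosome and inflammasome adaptors, of which 6 of 8 were tested, 1 was higher and 0 were lower, with a median of 0.11. PIDD1, the core of the PIDDosome, rose 1.24-fold, with 27.9 ± 2.31 CPM in control and 34.5 ± 1.49 CPM after docetaxel (mean ± SD of 3 libraries, adjusted p = 0.00376 by edgeR), and had an adjusted p of 0.572 with offsets. CRADD, which joins PIDD1 to CASP2, had a log2 fold change of 0.04 and did not pass (adjusted p = 0.85). PYCARD, the inflammasome adaptor, had 0 reads.

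In the list of apoptosome and mitochondrial factors all 10 genes were tested, 4 were higher and 1 was lower, with a median of 0.14. Of all tested genes 9.14 percent were higher and 7.82 percent lower. The list is wider than the apoptosome, and its higher genes include PHLDA3 and AARS1. PHLDA3 rose 1.39-fold from 62.4 ± 4.03 to 86.4 ± 3.33 CPM (edgeR adjusted p = 5.41e-07), and it stayed called with offsets (log2 fold change 0.32, adjusted p = 5.35e-05). PHLDA3 is a known target of p53 that restrains AKT signalling. CYCS, which encodes the cytochrome c that binds APAF1, fell from 219 ± 11.1 to 188 ± 15.3 CPM (adjusted p = 0.00251, 0.169 with offsets). ENDOG, a mitochondrial nuclease, rose 1.28-fold (adjusted p = 0.000629, 0.348 with offsets), and AARS1, an alanyl-tRNA synthetase, 1.12-fold (0.00374, 0.0678 with offsets). With offsets the list had 1 higher, PHLDA3, and 0 lower, with a median of 0.06.

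Of the inhibitors that bind caspases directly or mark them with ubiquitin, the IAP family and its regulators, 6 of 8 were tested, 1 was higher and 2 were lower, with a median of -0.14. XIAP, which binds and inhibits caspase 9, gave 41.3, 39.7 and 39.61 CPM in control and 29.24, 29.02 and 28.75 CPM with docetaxel. Its groups were far apart compared with the spread within them. For XIAP the log2 fold change was -0.47 with an SE of 0.07 (adjusted p = 1.59e-05, edgeR) and -0.29 with offsets (adjusted p = 0.00781), where it was not called without control replicate 1 (0.0608). BIRC2 fell from 28.8 to 23.9 CPM (adjusted p = 0.0155, 0.711 with offsets) but was not called without control replicate 2 (0.0957), control replicate 3 (0.0879) or docetaxel replicate 3 (0.0688). BIRC5, the survivin gene of dividing cells, rose from 262 to 287 CPM (adjusted p = 0.0166, 0.338 with offsets). The BIRC5 call was lost without control replicate 1 (0.0922), docetaxel replicate 1 (0.0657) or docetaxel replicate 3 (0.0819), and with library size scaling (0.0849) or no filter on low counts (0.0627).

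All 20 listed substrates and executioners of caspase action were tested, with 5 higher, 5 lower and a median of 0.04. These counts stand beside 9.14 percent of all tested genes higher and 7.82 percent lower. LMNA, the lamin gene whose protein caspase 6 cuts, rose 1.24-fold (edgeR adjusted p = 1.22e-06, 0.00436 with offsets), and with offsets it was not called without control replicate 2 (0.0638) or control replicate 3 (0.0509). GSDMD, a pore former cut by inflammatory caspases and by caspase 8, rose 1.23-fold (adjusted p = 0.00179, 0.479 with offsets). TOP1, the DNA topoisomerase, fell by 0.28 on the log2 scale (adjusted p = 0.000373, 0.0666 with offsets). With offsets the list had 1 higher and 2 lower, with a median of -0.02.

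**Figure D5:**
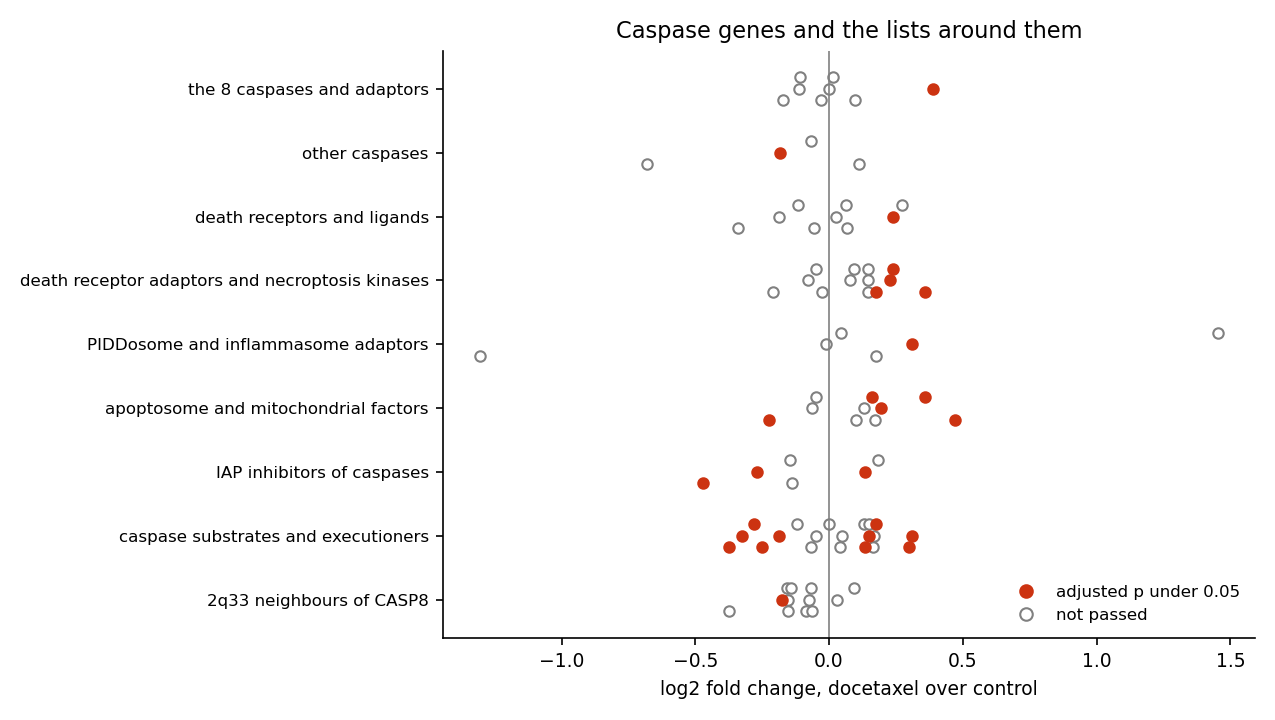
Log2 fold changes of docetaxel over control are plotted for every tested gene of the 8 caspases and adaptors, the 7 pathway lists and the chromosome 2 neighbours, with filled points for an adjusted p under 0.05. Filled points lie on both sides of 0 over the pathway lists, 16 higher and 9 lower, and FADD is the 1 filled point in the top row.

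CFLAR, CASP10 and CASP8 lie side by side on chromosome 2, so their surroundings were read as well. Within 500 kb of the cluster 47 other genes with a symbol start, 12 were tested, 0 were higher and 1 was lower, with a median log2 fold change of -0.12 that was 0.01 with offsets. The gene that fell was BZW1, a translation regulator, at -0.18 (edgeR adjusted p = 0.00632, 0.97 with offsets), and it was not called without docetaxel replicate 2 (0.0537). For comparison, the 3 genes of the cluster had log2 fold changes of -0.11 for CFLAR, 0.00 for CASP10 and -0.17 for CASP8.

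Markers of other cell types were read beside these results. The summed epithelial markers were 2886 to 2980 CPM in control and 3349 to 3396 CPM with docetaxel. Of the 7 tested genes 5 were higher, 2 of them also with offsets. Of all tested genes 9.14 percent were higher, and 2.31 percent with offsets. Summed fibroblast markers, nearly all COL1A1, were 140.0 to 146.9 and 141.9 to 148.5 CPM, with 0 of 3 called, and summed endothelial markers 2.05 to 2.95 and 2.80 to 3.50 CPM, with 0 of 3 called. Summed leukocyte markers were 1.46 to 1.85 and 1.99 to 3.60 CPM, and CD14, the 1 tested, was higher (edgeR adjusted p = 0.0377, 0.167 with offsets). The part of these marker differences in the values of FADD and the other genes was not tested.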

How the data were processed

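Values are raw counts of reads in each gene, deposited by the authors in 1 table beside gene lengths. They were made with featureCounts 2.0.1 on GRCh38, with MultiQC 1.11 for quality reports, per the submitters' processing notes. No aligner, annotation release or strand setting is given in the sources used here. Library names in the labels tied each column to its sample.

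Genes were kept with filterByExpr (18040 of 78932 rows, holding 99.9 percent of counts), scaled with TMM and tested in R 4.3.3 with edgeR 4.0.16 (glmQLFit, robust, two-sided), adjusted over all genes kept. Standard errors were derived from the test's p. Positions came from GENCODE release 29, and GC content and length served as loess offsets (span 0.5) for the 91 percent of tested genes with a value. DESeq2 1.42.0, limma 3.58.1, other scalings and filters, a replicate block and leaving out each library were alternatives. Statistics were tested on simulated counts. The biological coefficient of variation was 0.0759. Intervals and floors cover counting or library error only. The labels call the replicates biological without naming separate cultures, so the p-values reflect only how far these libraries differ, which may be technical. All pairs of libraries within a group differed by more than sampling noise.

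The text names all 8 genes, up to 4 tested genes of smallest p per list where a result turns on them, and the 3 genes most like FADD. Further genes were named after their values were seen. The genes and lists were chosen with earlier results of these data known. Some genes of the lists are not reported here.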

Additional observations from a re-analysis of the deposited data

How the results depend on the processing

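Over all genes, scaling by library size alone gave 1096 higher and 1866 lower in place of 1649 and 1410. GC and length offsets gave 380 higher and 309 lower, of which 427 calls were shared with the 3059 made without them, and offsets with the replicate block gave 270 and 214. Leaving out 1 library, with or without offsets, gave 98 to 1397 higher and 78 to 1841 lower. For the pathway lists (16 higher, 9 lower) offsets gave 3 and 3, offsets with the block 2 and 2, and leaving out 1 library 1 to 15 higher and 1 to 10 lower. For the 8 genes (1 higher, 0 lower) the count of higher genes was 0 with library size alone, DESeq2, offsets, or offsets with the block. Leaving out 1 library gave 0 to 1 higher and 0 to 1 lower, the lower call being CASP8 without docetaxel replicate 1. FADD passed in 7 of 14 alternatives without offsets and in 0 of 8 with them, the direction being upward in all.

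Estimates near 0 changed sign. CASP6 was -0.0252 with library size alone. CASP10 was 0.0132 with upper-quartile scaling, 0.000898 with limma-voom, 0.00016 with a filter of 1 CPM in 3 libraries, 0.00044 with the replicate block, 0.0517 with offsets and 0.0529 with both. With offsets, and with offsets and the block, APAF1 was 0.10 and 0.10, SHARPIN -0.0599 and -0.0606, and BZW1 0.00505 and 0.00435. CFLAR with both was 0.00107. Leaving out 1 library, with or without offsets, gave ranges of -0.148 to 0.00488 for CASP2, -0.0189 to 0.0790 for CASP6, -0.0346 to 0.137 for CASP9, -0.0524 to 0.131 for CASP10, -0.0676 to 0.136 for APAF1, -0.146 to 0.0879 for CFLAR, -0.0145 to 0.28 for TNFRSF12A, -0.25 to 0.0439 for FAS, -0.12 to 0.20 for SHARPIN and -0.24 to 0.0315 for BZW1. The cause was not tested. Without offsets, leaving out 1 library kept the sign of the ratios. Their ranges were 0.0027 to 0.187 for CFLAR to CASP8, 0.0549 to 0.345 for CASP10 to CASP8 and -0.206 to -0.0698 for APAF1 to CASP9. The log2 fold changes of APAF1 and CASP9 were -0.0283 and 0.0969 without offsets. With offsets they were 0.0996 and 0.0238, in the opposite order.

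The replicate numbers did not pair the libraries. Same-numbered libraries had correlations of their deviations of -0.114, -0.134 and 0.067, and only number 3 was the best match in both directions. The block gave 1283 higher and 1106 lower over all genes, and FADD an adjusted p of 0.0452. Of the genes named, BIRC5 (0.0502) lost its call with it. Where a library was left out of a group of 3, the dispersion was estimated over the 5 that remained. Read numbers limit CASP10, APAF1 and FADD most, each with fewer than 500 reads per library.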
